A study of Mus musculus with 2 samples.

Results

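CD8 T cells of MC38 tumours were taken from 2 single-cell RNA libraries as barcodes with T cell transcripts and few macrophage transcripts, and were chosen by their own UMI counts of CD3, CD8 and complement genes. A barcode was kept with at least 500 genes and at most 10% mitochondrial UMIs, where a UMI (unique molecular identifier) stands for 1 captured RNA molecule. It also had to hold at least 2 UMIs of the CD3 genes Cd3d, Cd3e and Cd3g together, at least 1 UMI of Cd8a or Cd8b1, and less than 1% of its UMIs from the complement genes C1qa, C1qb and C1qc. The complement genes mark macrophages here. This left 129 of the 7005 deposited barcodes, 88 in the responder library and 41 in the non-responder library.

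Both libraries held CD45+ leukocytes sorted by FACS from subcutaneous tumours of C57BL/6 mice. Each mouse had received 50000 MC38-GFP+ cells, a fluorescent mouse colon adenocarcinoma line, and a sub-optimal course of an antibody against PD-1 of 100 ug on days 12, 15, 18 and 22. The responder and the non-responder library thus shared strain, tumour and treatment and differed, per the labels, in the response to treatment. The number of mice behind each library, their age and the measure of response are not given in the sources used here. Because each group was 1 library, no test between groups was possible, and the 95% intervals below cover counting error only.

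CD8 T cells recognise peptides on MHC class I through a receptor complex with CD3, and the CD8 chains bind the same MHC molecule. Activated cells kill with perforin and granzymes and secrete interferon-gamma and chemokines. With lasting antigen contact, as in tumours, they also display inhibitory receptors such as PD-1, the target of the antibody given here.

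CD3 and CD8 transcripts chose the cells, so their counts describe the cells and do not check the label. Cd8a, Cd8b1 and Cd3e were all seen in 85 of 88 responder cells and in 35 of 41 non-responder cells. Of the genes that the rule did not use, Gzmb, the main granzyme gene of killer cells, was seen in 74 responder and 15 non-responder cells, and Ifng, the interferon-gamma gene, in 50 and 19 cells of the same libraries. Cd4 was seen in 2 responder cells and in 0 non-responder cells, and Foxp3, the regulatory T cell factor, in 1 and 0. The cells fell mostly well inside the limits, since the median cell held 25 CD3 and 16 CD8 UMIs in the responder library and 24 and 13 in the non-responder library. At the edges, 2 responder and 3 non-responder cells had exactly 1 CD8 UMI, and the highest C1q share inside was 0.938% and 0.834% against a lowest share outside of 1.05% and 1.17%.

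The cells made up 2.01% (88 of 4376, exact Clopper-Pearson interval 1.62 to 2.47%) of the filtered barcodes in the responder library and 1.60% (41 of 2565, 1.15 to 2.16%) in the non-responder library. These intervals overlapped. The median cell had 3852 UMIs (2326 to 23658) in the responder library and 6187 (3139 to 22646) in the non-responder library, and the summed cells held 419432 and 322220 UMIs. The 5 largest cells gave 19.9% of the responder sum and 29.4% of the non-responder sum, so values are named where 1 cell held most of the UMIs on their higher side. Both libraries listed the same 14 barcodes, which touched 0 responder and 2 non-responder cells. Without them the shares were 2.02% and 1.53%.

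Marker lists of other cell types were mostly at 0 UMIs, with exceptions among genes that T cells also express. Of 8 NK cell genes 5 were at 0 in the responder cells and 3 in the non-responder cells, Ncr1 in both, and the list summed to 868 and 233 UMIs per 1000000 (CPM). Most of that sum was Gzma (257 UMIs in responder and 3 in non-responder cells) and Klre1 (seen in 42 and 24 cells), which CD8 T cells also express. The non-responder cells also held 10 UMIs of Klra9 and 6 of Klrb1c. Of 11 dendritic cell genes 8 and 9 were at 0, among them Xcr1, Clec9a and Flt3, with sums of 66.8 and 112 CPM that came mostly from Ccr7, which T cells also express (22 and 33 UMIs). The B cell, neutrophil, tumour epithelial, fibroblast and erythroid lists each summed to at most 24.8 CPM in either library, with Cd79b at 4 and 2 UMIs, S100a8 at 0 and 3, and Cdh1 at 1 and 4. Macrophage RNA was still present, unevenly over the cells. Summed over 23 macrophage genes other than C1q it reached 12147 CPM in responder CD8 T cells and 12535 CPM in non-responder CD8 T cells, against 85741 and 65154 CPM in the macrophages of the same libraries. The median macrophage gene stood at 14.0% of its macrophage level in responder cells and 15.8% in non-responder cells. These are shares of summed counts, and single cells weighed on them. For Lyz2, 1 responder cell held 228 of 561 UMIs and 1 non-responder cell 366 of 785, while the median cell held 1 and 2. For Apoe, the top cells held 159 of 507 and 401 of 749 UMIs. Macrophages were barcodes with C1q at 1% of UMIs or more and no CD3 UMI, of which the responder library held 3662 and the non-responder library 1979.

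By the medians of their measured genes, the chemokine, interferon-induced, inhibitory receptor and killing lists were higher in responder than in non-responder CD8 T cells. A few granzymes ran the other way. Of 2598 genes with at least 30 UMIs over both libraries, 254 (9.78%) were at least 2-fold higher in the responder cells and 91 (3.5%) at least 2-fold lower. Without the shared barcodes these counts were 273 and 101. The median of all these genes was 0.15 on the log2 scale. In the plot of gene lists, the chemokine, interferon and receptor lists lie to the right of that median and the mitosis list to its left.

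**Figure D1:**
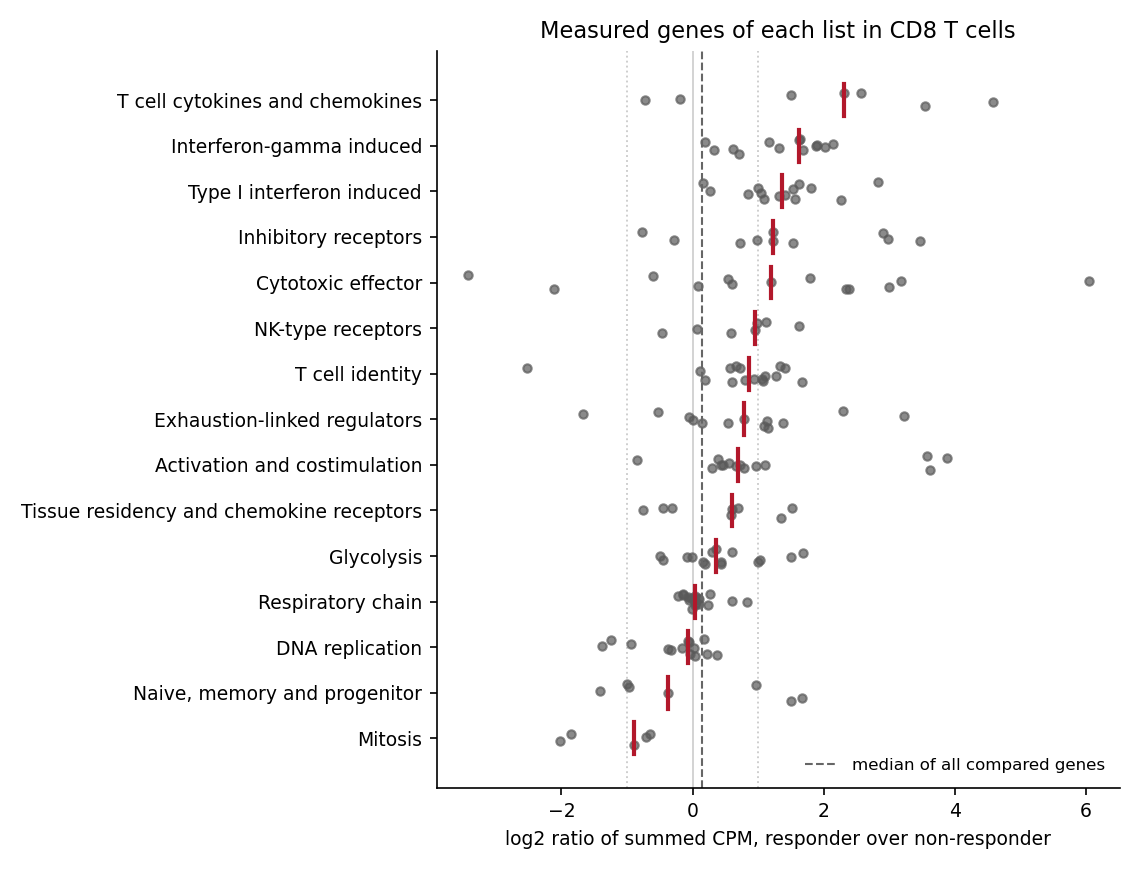
Log2 ratio of summed CPM in CD8 T cells, responder over non-responder, for each measured gene (points) of 15 gene lists, with the list median as a red bar. The dashed line is the median of all compared genes at 0.15, the dotted lines mark a 2-fold difference, and the cytokine and chemokine list has the highest median of the lists drawn, 2.31.

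Of the 13 measured cytotoxic effector genes, 7 were at least 2-fold higher and 2 at least 2-fold lower in the responder cells, with a list median of 1.20. The median was 0.53 with genes of at least 10 UMIs and 0.58 with C1q allowed up to 2% of UMIs. Gzma, with 257 responder and 3 non-responder UMIs, entered mostly through the responder library. Gzmd, Gzme and Gzmg, at 0 in responder cells and seen in 4, 3 and 2 non-responder cells, did not enter. Gzmb (chr14:56258838-56262260, minus strand, GRCm38) reached 3622 CPM (interval 3442 to 3808) in responder cells and 456 CPM (385 to 536) in non-responder cells, a log2 ratio of 2.99 (2.74 to 3.24). Per cell, the median was 9 Gzmb UMIs in the responder library with a highest value of 170, and 0 in the non-responder library with a highest value of 47. The cells of the libraries overlapped, since 14 responder cells also lacked the transcript.

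Gzma, the gene of granzyme A, had 613 CPM in responder cells and 9.31 CPM in non-responder cells, but it lay in 8 responder cells and 1 non-responder cell. A single responder cell held 51.0% of its UMIs, and without the top cell of each library the log2 ratio was 5.01 in place of 6.04. Prf1, which encodes the pore-forming perforin, had 112 and 12.4 CPM in responder and non-responder cells, a log2 ratio of 3.17 (1.72 to 5.11). Gzmk, another granzyme gene, was seen in 49 responder and 5 non-responder cells, with a log2 ratio of 2.34 (1.60 to 3.17).

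The remaining members of the list varied in direction. Serpinb9, an inhibitor that protects killer cells from their own granzyme B, was higher in responder cells (389 against 74.5 CPM, log2 ratio 2.38). Nkg7, a cytotoxic granule protein, was seen in all 88 responder and all 41 non-responder cells, at 7429 and 3234 CPM. Cst7 (log2 ratio 0.09, -0.19 to 0.36) and Fasl (0.54, -0.13 to 1.24), the death ligand, had intervals that included 0. Ctsw, a protease of killer cells, was lower in responder cells at 358 against 546 CPM (-0.61, -0.93 to -0.29).

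The granzymes lower in responder cells sit beside Gzmb in the chromosome 14 cluster. Gzmf (chr14:56205263-56211417) had 129 CPM in responder cells and 1387 CPM in non-responder cells, a log2 ratio of -3.43 (-3.86 to -3.02). It was a feature of few cells in both libraries, 10 responder and 6 non-responder, and a single non-responder cell held 61.5% of the UMIs there. Gzmc had 35.8 CPM in 3 responder cells and 155 CPM in 8 non-responder cells, with 44.0% of the non-responder UMIs in 1 cell. Gzmd had under 30 UMIs over both libraries and was not compared. It was at 0 in responder cells and had 22 UMIs in 4 non-responder cells, 17 of them in the cell with the most Gzmf. These cluster genes are near copies of each other, so the counts may not separate them fully.

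Of the 7 measured cytokine and chemokine genes, 5 were at least 2-fold higher in responder cells, and 0 were at least 2-fold lower. The list median of 2.31 was 1.43 with genes of at least 10 UMIs and 1.31 with C1q allowed up to 2%. Genes of inflammatory CC chemokines led. Ccl4 (chr11:83662584-83664683) had 4292 CPM in 69 responder cells and 180 CPM in 19 non-responder cells, a log2 ratio of 4.58 (4.20 to 4.98), and 4.84 without the top cell of each library. Ccl3 had 1304 and 112 CPM, a log2 ratio of 3.55 (3.06 to 4.07), and Ccl5 had 10285 and 1732 CPM, a log2 ratio of 2.57 (2.44 to 2.70). Macrophages expressed these genes too, with Ccl4 at 978 CPM in responder and 881 CPM in non-responder macrophages. The non-responder CD8 T cells stood below the macrophages of their own library for Ccl4, at 180 CPM, and above the 139 CPM that the median macrophage gene share of 15.8% would give. The part of macrophage RNA in the difference was not tested.

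Ifng had 677 CPM in responder cells and 137 CPM in non-responder cells, a log2 ratio of 2.31 (1.85 to 2.80), and was near 0 in macrophages at 0.41 and 0.19 CPM. Ltb, the lymphotoxin-beta gene, followed at 510 and 180 CPM. Xcl1, a chemokine that attracts cross-presenting dendritic cells, went against the list. It had 527 CPM in responder cells and 602 CPM in non-responder cells, but 84.2% of the responder UMIs lay in 1 cell and the transcript was seen in 6 responder and 16 non-responder cells. Without the top cell of each library its log2 ratio was -2.47.

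Inhibitory receptors were higher in the responder cells for 6 of 10 measured genes past 2-fold, and lower past 2-fold for 0, with a median log2 ratio of 1.23 (2.58 in cells drawn to 1500 UMIs). Pdcd1, the gene of PD-1, had 956 CPM in responder cells and 407 CPM in non-responder cells, a log2 ratio of 1.23 (0.95 to 1.53). The median cell held 3 Pdcd1 UMIs in the responder library and 1 in the non-responder library. The receptors Ctla4 and Lag3 were farther apart than Pdcd1, with log2 ratios of 3.46 (2.71 to 4.32) and 2.90 (2.40 to 3.43). Ctla4 was seen in 68 responder and 11 non-responder cells, and Lag3 in 72 and 19. Havcr2, the gene of TIM-3, had 317 and 40.4 CPM and a log2 ratio of 2.97 (2.15 to 3.92), with macrophages at 67.9 and 51.8 CPM in the responder and non-responder library.

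Cd160 and Entpd1 also passed 2-fold, at log2 ratios of 1.22 and 1.54. Klrc1, the NKG2A receptor, and Vsir were higher by 0.98 and 0.73. Cd244 (-0.77, -1.93 to 0.36) and Cd96 (-0.28, -0.93 to 0.37) had intervals that included 0. Tigit fell under the limit of 30 UMIs and was not compared.

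Because responder cells were shallower, shares of cells with a transcript were taken after drawing 1500 UMIs from each cell. Gzmb was then seen in 76.1% of responder cells (65.9 to 84.6%) and 24.4% of non-responder cells (12.4 to 40.3%), against 0.5% and 0.2% of macrophages, and in 84.1% and 36.6% of the undrawn CD8 T cells. Lag3 was seen in 62.5% and 12.2%, Ctla4 in 52.3% and 4.9%, and Pdcd1 in 62.5% and 36.6% of responder and non-responder cells. The opposite order held for Bcl2, a survival factor, with 20.5% of responder and 51.2% of non-responder cells. Macrophages express Ccl3, Ccl4 and Havcr2 themselves, and in the non-responder library the CD8 T cell shares lay below theirs, at 4.9% against 30.4% for Ccl3, 17.1% against 40.6% for Ccl4 and 2.4% against 7.3% for Havcr2. How much of these shares was macrophage RNA was not tested. In the plot of shares, the CD8 T cell intervals of Gzmb, Ccl3, Ccl4, Ccl5, Lag3, Havcr2, Ctla4, Icos and Bcl2 do not overlap between libraries.

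**Figure D2:**
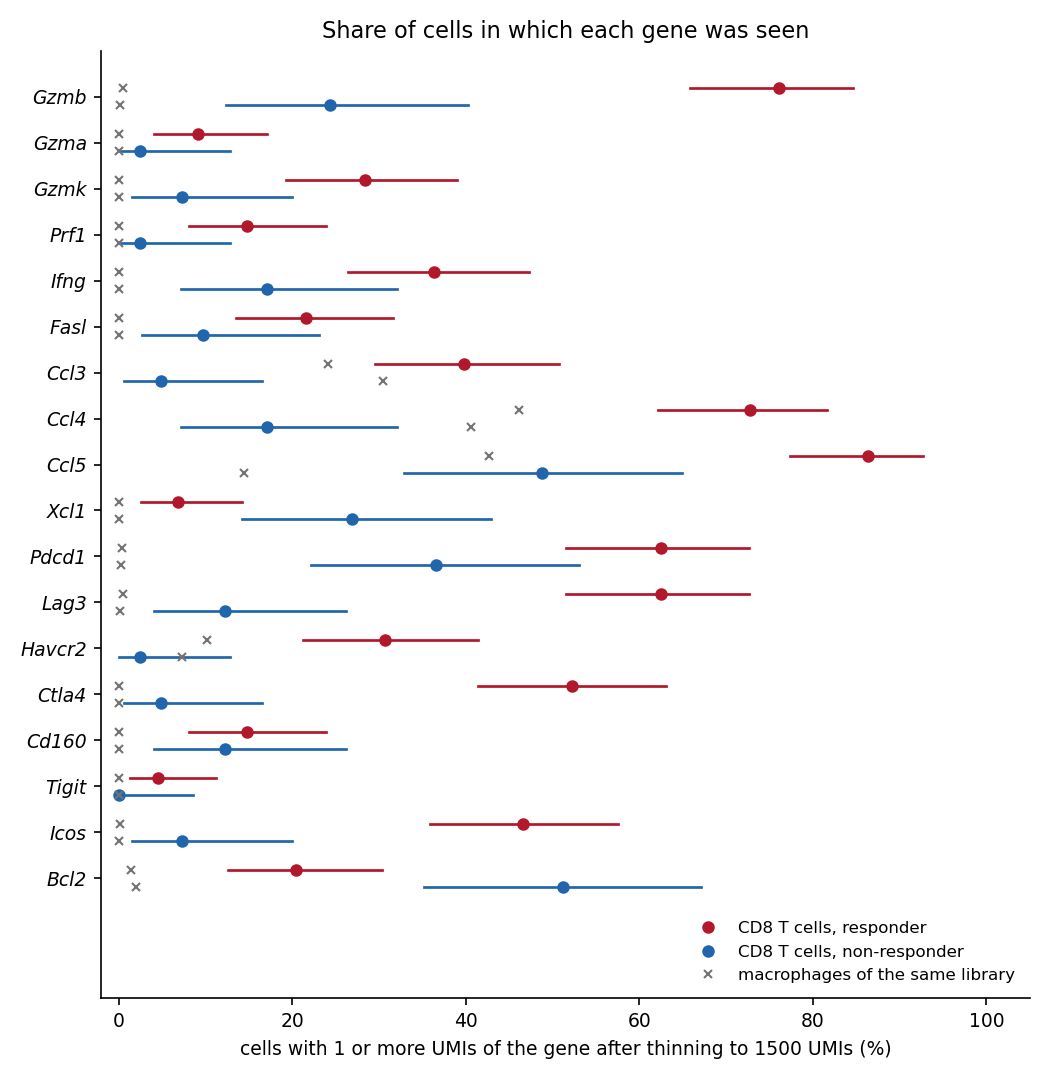
Percent of cells with at least 1 UMI of each gene after drawing 1500 UMIs per cell, for 88 responder CD8 T cells (red, upper) and 41 non-responder CD8 T cells (blue, lower), with exact binomial 95% intervals. Crosses mark macrophages of the same library, which reach 46.1% in the responder library for Ccl4 and stay at 0.5% and 0.2% for Gzmb.

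Costimulatory and activation genes differed in a few members. Icos, a costimulatory receptor of activated T cells, had 551 CPM in 72 responder cells and 37.2 CPM in 9 non-responder cells, a log2 ratio of 3.89 (3.05 to 4.86). Cd226, an activating receptor that shares ligands with TIGIT, had 114 and 9.31 CPM. Ly6a reached 2587 and 217 CPM, a log2 ratio of 3.57, with macrophages at 2858 and 601 CPM. The list's other members lay closer together, and 4 of 14 passed 2-fold in total. Tnfrsf9, the 4-1BB receptor, had a log2 ratio of 0.96 (0.72 to 1.22), and Cd69 0.29 (-0.22 to 0.81).

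Regulators linked to exhaustion were mixed. Of 13 measured genes, 6 were at least 2-fold higher and 1 at least 2-fold lower in responder cells. Rgs16, a regulator of G-protein signalling, had 911 and 186 CPM in responder and non-responder cells, and Nr4a1, a nuclear receptor induced by T cell receptor signals, had 145 and 15.5 CPM. Tox, a transcription factor tied to exhaustion in mouse tumours and chronic infection, had 66.8 and 96.2 CPM and an interval that included 0 (-1.32 to 0.26). Ikzf2, the gene of Helios, was lower in responder cells at 38.2 against 121 CPM (-1.67, -2.60 to -0.79).

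Genes of naive and memory cells had a list median of -0.38 over 7 measured members (0.89 in cells drawn to 1500 UMIs), with 2 past 2-fold higher and 1 past 2-fold lower. Bcl2 had 160 CPM in responder cells and 425 CPM in non-responder cells, a log2 ratio of -1.41 (-1.86 to -0.98), and was seen in 29 of 88 and 39 of 41 cells. Cd27, a costimulatory receptor, ran the other way at 384 and 121 CPM (1.67, 1.15 to 2.21). Ccr7, a lymph node homing receptor, had 52.5 CPM in 6 responder cells and 102 CPM in 8 non-responder cells. Dapl1, Id3 and Tcf7 had under 30 UMIs over both libraries. Dapl1 and Id3 were at 0 in responder cells, with 27 and 13 UMIs in non-responder cells, and 1 cell held 55.6% of the Dapl1 UMIs.

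Tissue homing and NK-type receptors were higher in responder cells in part. Cxcr6, the receptor for the chemokine CXCL16, had 1447 CPM in responder and 506 CPM in non-responder cells (1.52, 1.26 to 1.77). Klrd1, the CD94 partner of NKG2 receptors, had 1862 and 602 CPM (1.63, 1.40 to 1.86) and was seen in 84 and 36 cells. Of the residency list 2 of 8 measured genes passed 2-fold higher, and of the NK-type list 2 of 7, with 0 past 2-fold lower in either.

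Metabolic genes were closer to the median of all genes. Glycolysis had a median of 0.36 with 3 of 15 past 2-fold higher, and the respiratory chain a median of 0.04 with 0 of 18 past 2-fold in either direction. Ribosomal protein genes were lower in responder cells for 77 of 82 measured genes, with a median of -0.46 and 1 past 2-fold. The median of all compared genes was 0.15. Within mitosis, all 5 measured genes were lower in responder cells, although Top2a was higher (1.48) in cells drawn to 1500 UMIs, and 2 were past 2-fold lower. Among these was Ccnb2, a cyclin of mitotic entry, at 21.5 against 86.9 CPM (-2.02, -3.29 to -0.89), seen in 2 responder and 5 non-responder cells. Few cells weighed on this list. The top non-responder cells held 106, 65, 40 and 38 mitosis UMIs, and the top responder cells 60 and 40.

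The genes farthest apart were ranked by the bound of the log2 interval nearest 0, and several of them rested on 1 cell. Among the 12 ranked higher, Ccl1, a chemokine of activated T cells, had 248 CPM in responder cells and 3.10 CPM in non-responder cells, with 88.5% of the responder UMIs in a single cell. Its log2 ratio was 6.32 (3.81 to 11.64), and 1.62 without the top cells. Serpine2, a serine protease inhibitor, had 224 CPM in 24 responder cells and 6.21 CPM in 2 non-responder cells. Sv2c (90.6 against 3.10 CPM) and 2310031A07Rik (134 against 6.21 CPM) were seen in 21 and 33 responder cells and in 1 non-responder cell each. The other 8 were Ccl3, Ccl4, Ccl5, Ctla4, Gzma, Gzmb, Icos and Lag3, described above.

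Among the 12 ranked lower in responder cells, the stress genes were carried by few cells. Hmox1, the heme oxygenase, had 16.7 CPM in responder and 590 CPM in non-responder cells, with 87.9% of the non-responder UMIs in 1 cell, and its log2 ratio of -5.14 was -2.32 without the top cells. Prdx1, an antioxidant enzyme, had 625 and 2272 CPM, with 76.1% of the non-responder UMIs in that same cell, and its log2 ratio of -1.86 became 0.05. Gstm1 (86.2%) and Mt2 (70.8%) likewise had most of their non-responder UMIs in 1 cell. The cell behind Hmox1, Prdx1 and Gstm1 held 22646 UMIs, with 366 of Lyz2 and 175 of Apoe, both macrophage genes, and a C1q share of 0.737%.

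Of the other ranked genes, some were spread over more cells and some over few. Gadd45g, a growth arrest gene, was seen in 6 responder and 19 non-responder cells at 14.3 and 127 CPM (-3.15, -4.68 to -1.91). Fdps, of the sterol pathway, was seen in 8 and 16 cells at 19.1 and 93.1 CPM, and Smyd3, a methyltransferase, in 15 and 25 cells at 45.3 and 164 CPM. Rps18-ps3 had 169 and 469 CPM but is a pseudogene whose reads may belong to the ribosomal gene Rps18. Cd7, a T and NK cell surface protein, had 21.5 CPM in 4 responder cells and 124 CPM in 11 non-responder cells, with 52.5% of the non-responder UMIs in 1 cell. Klra1 was at 0 in responder cells and had 30 UMIs in 3 non-responder cells, 60.0% of them in 1 cell.

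**Figure D3:**
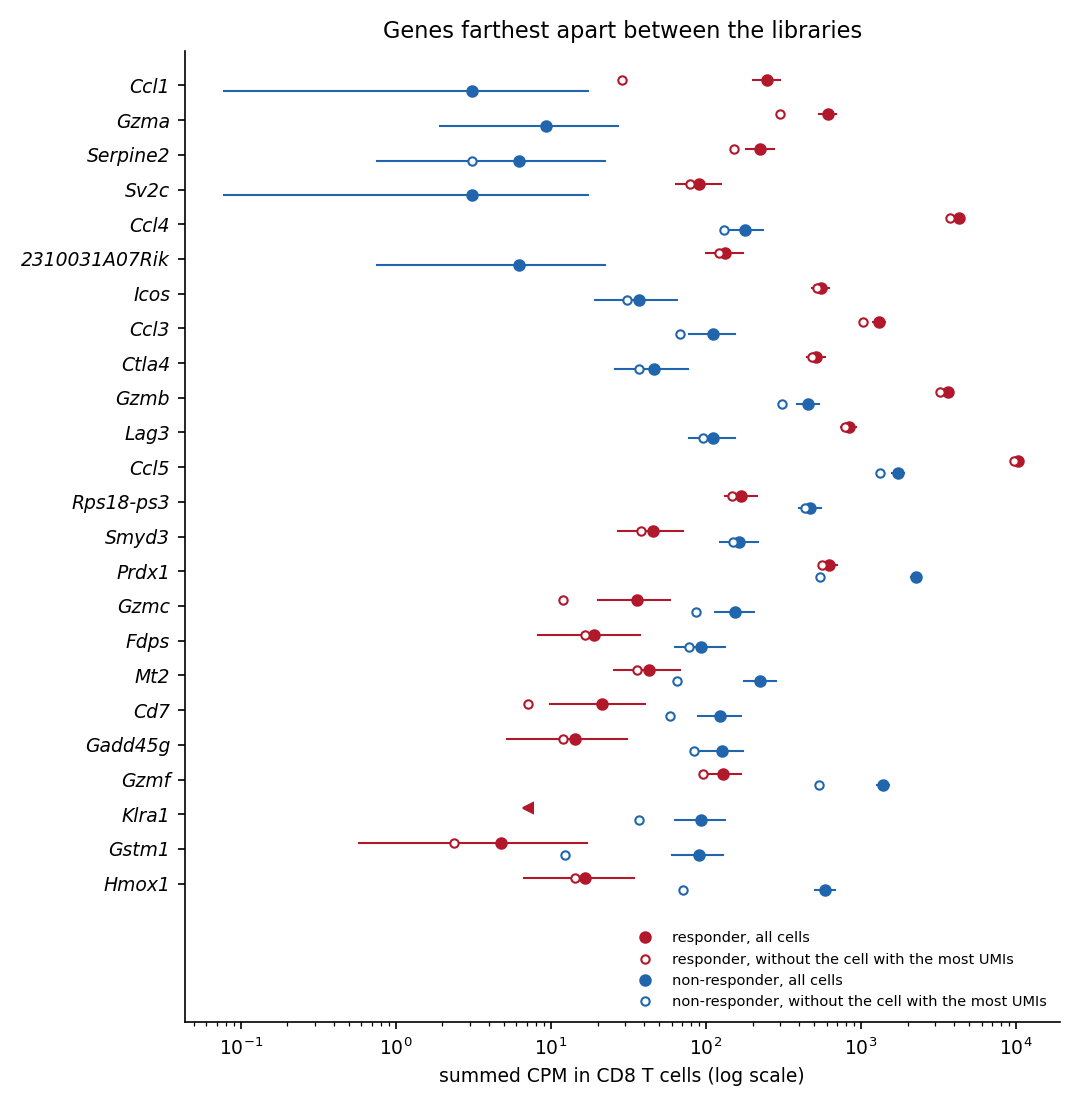
Summed CPM (log axis) of the 24 ranked genes in responder (red, upper) and non-responder (blue, lower) CD8 T cells, with exact Poisson 95% intervals and open circles for the value without the cell that held the most UMIs of the gene. The left-pointing triangle is the floor of 3 UMIs for Klra1, and the open circles of Ccl1, Hmox1 and Prdx1 lie far from their filled ones.

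Interferon-induced genes were higher in responder cells. All 13 measured interferon-gamma-induced genes had a positive log2 ratio, 9 of them past 2-fold, with a median of 1.63, although Gbp2 fell below 0 in cells with C1q under 0.2%. All 14 measured type I interferon-induced genes had a positive ratio, 10 past 2-fold, with a median of 1.36. Over all compared genes the median was 0.15, and 9.78% were at least 2-fold higher. Macrophages of the same tumours express both lists. In macrophages the medians were 1.05 and 0.40 for the same contrast. For the type I list the CD8 T cell ratio was larger than the macrophage ratio for 14 of 14 genes, and for the interferon-gamma list for 6 of 13. The same count over all compared genes is not given here. Ifi203 (0.272 against 0.269) and Bst2 (0.154 against 0.138) were nearly equal in both cell types. The level that the median macrophage gene share would give was exceeded by 14 type I genes in responder and 12 in non-responder CD8 T cells. Both cell types came from the same 2 libraries and the difference between them was not tested.

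Ifit1, an antiviral RNA-binding protein, had 110 CPM in responder and 15.5 CPM in non-responder CD8 T cells (2.82, 1.50 to 4.51), while macrophages had 74.0 and 75.5 CPM. Ifit3 had 119 and 24.8 CPM (2.26, 1.18 to 3.55) against 209 and 197 CPM in macrophages, and Isg15, a ubiquitin-like modifier, 305 and 86.9 CPM (1.81, 1.21 to 2.46) against 588 and 429 CPM. Isg20, an exonuclease, had 259.9 and 130.3 CPM in CD8 T cells, and 25.4 and 32.4 CPM in macrophages. Among interferon-gamma genes, Irf1, a transcription factor, had log2 ratios of 1.69 in CD8 T cells and 1.71 in macrophages, and Gbp4, a guanylate-binding protein, 2.14 and 2.47. Gbp2 had a log2 ratio of 1.64 in all CD8 T cells and of -0.13 in those with C1q under 0.2% of UMIs.

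**Figure D4:**
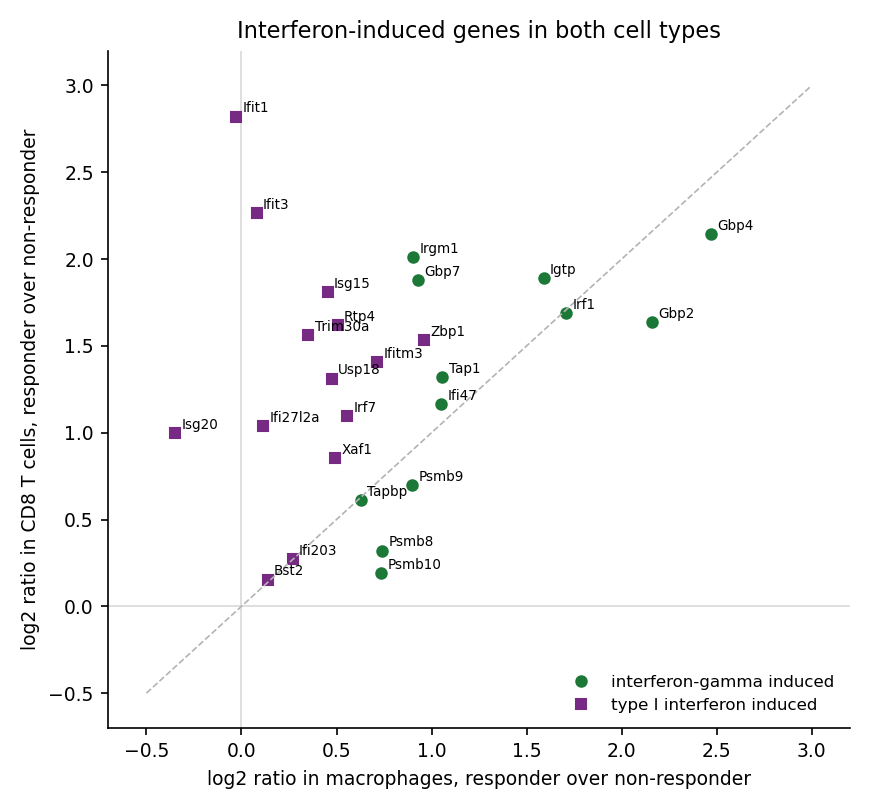
Log2 ratio of responder over non-responder CPM in CD8 T cells (vertical) and in macrophages (horizontal) for the measured interferon-induced genes that are reported here, with a dashed line of equal ratios. Type I genes (squares) all lie above the line, with Ifit1 at 2.82 and -0.03, while 7 interferon-gamma genes (circles) lie below it.

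The promoters of Ifit1, Ifit3 and Isg15 are shown because these genes were higher in responder CD8 T cells while their macrophage ratios were near 0 or below 0.5. Sequences are from RefSeq (GRCm38.p6), 250 bases before to 50 after the start, and capitals mark GAAANNGAAA or its reverse complement, the core of the interferon-stimulated response element.
Ifit1 (chr19:34640639-34640938, plus strand): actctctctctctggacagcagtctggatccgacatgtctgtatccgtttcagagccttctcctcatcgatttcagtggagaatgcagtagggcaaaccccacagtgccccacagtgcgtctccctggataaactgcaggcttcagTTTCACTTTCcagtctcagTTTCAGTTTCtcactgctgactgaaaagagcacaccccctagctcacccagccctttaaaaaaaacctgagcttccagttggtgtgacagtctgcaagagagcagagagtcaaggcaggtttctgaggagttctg
Ifit3 (chr19:34583279-34583578, plus strand): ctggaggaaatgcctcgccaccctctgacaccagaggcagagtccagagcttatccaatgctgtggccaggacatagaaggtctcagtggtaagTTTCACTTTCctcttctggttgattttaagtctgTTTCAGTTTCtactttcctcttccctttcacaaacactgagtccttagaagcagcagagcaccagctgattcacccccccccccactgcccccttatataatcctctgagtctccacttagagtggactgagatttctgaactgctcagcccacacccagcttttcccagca
Isg15 (chr4:156200769-156201068, minus strand): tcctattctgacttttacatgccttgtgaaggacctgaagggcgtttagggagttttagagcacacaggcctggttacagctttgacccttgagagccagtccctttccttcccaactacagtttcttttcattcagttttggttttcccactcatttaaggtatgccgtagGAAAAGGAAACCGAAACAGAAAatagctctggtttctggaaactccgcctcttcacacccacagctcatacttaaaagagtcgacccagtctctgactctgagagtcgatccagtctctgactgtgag
Ifit1 holds 2 matches, Ifit3 2 and Isg15 3 that overlap in a single run. Over all 27025 genes with a promoter, 1079 (3.99%) hold the motif on either strand. Of the listed genes with a promoter, measured or not, 10 of 14 type I and 7 of 14 interferon-gamma genes hold it. Among the measured ones, 7 of 10 type I and 4 of 11 interferon-gamma genes do. Of the measured genes in general, 5.07% (102 of 2013) do. A match is a letter pattern and not a binding site. For comparison, 4 of 18 effector promoters and 0 of 10 inhibitory receptor promoters hold it, and among measured genes 3 of 12 and 0 of 8.

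MHC class II genes were higher past 2-fold in all 6 measured cases in responder CD8 T cells, with a median log2 ratio of 2.34, against 2.23 in macrophages. H2-Aa had 1218 and 254 CPM in responder and non-responder CD8 T cells, against 10196 and 2105 CPM in macrophages. Cd74 had 3722 and 822 CPM, against 32262 and 7143 CPM. Single cells weighed on these sums. For Cd74, 1 responder cell held 778 of 1561 UMIs and 1 non-responder cell 100 of 265, while the median cell held 5 and 1. That responder cell had 20566 UMIs and a C1q share of 0.938%, the highest among the responder CD8 T cells. In each library, 1 of the 6 genes exceeded the level that the median macrophage gene share, 14.0% or 15.8%, would give, and the part of macrophage RNA in them was not tested.

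Within each library the cells differed in effector, receptor and division transcripts. At a depth of 1500 UMIs, a cell was called effector with 2 or more UMIs of Gzmb, Gzma, Prf1, Ifng and Fasl together, inhibitory-receptor with 2 or more UMIs of Pdcd1, Havcr2, Lag3, Tigit and Ctla4 together, and dividing with 2 or more UMIs of 24 mitosis genes. These are ranges of a score and not cell types. Effector cells were 69 of 88 (78.4%, 68.4 to 86.5%) in the responder library and 11 of 41 (26.8%, 14.2 to 42.9%) in the non-responder library. Inhibitory-receptor cells were 75 of 88 (85.2%, 76.1 to 91.9%) and 10 of 41 (24.4%, 12.4 to 40.3%). Neither pair of intervals overlaps, and macrophages met the effector rule in 0 cells and the receptor rule in 0.901% and 0.303%. Without the 2 cells of shared barcodes the non-responder shares were 28.2% for effector and 25.6% for inhibitory-receptor cells. Averaged over all possible draws, the effector shares were 77.5% and 21.5% and the receptor shares 81.5% and 25.4%.

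The limit of 2 UMIs lies near many cells. Exactly 1 effector UMI was found in 6 responder and 8 non-responder cells, and exactly 2 in 8 and 5. Exactly 1 receptor UMI was found in 4 responder and 8 non-responder cells, and exactly 2 in 13 and 7, so 7 of the 10 non-responder inhibitory-receptor cells stood at the limit. Without drawing to equal depth the effector shares were 86.4% and 61.0% and the receptor shares 95.5% and 65.9%, so the distance between libraries depended on depth but its direction did not.

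Most responder cells met both limits, as most of them met each limit alone. Of the 88 responder cells 62 were effector and inhibitory-receptor at once, 7 effector alone, 13 inhibitory-receptor alone, and 6 neither. Of the 41 non-responder cells 3 were both, 8 effector alone, 7 inhibitory-receptor alone and 23 neither. Within the responder library 89.9% (62 of 69) of effector cells were inhibitory-receptor cells, against 68.4% (13 of 19) of the other cells, with overlapping intervals of 80.2 to 95.8% and 43.4 to 87.4%. Within the non-responder library the shares were 27.3% (3 of 11) and 23.3% (7 of 30). At least 3 of the 5 receptors were seen in 37.5% of responder cells (33 of 88) and 2.44% of non-responder cells (1 of 41), and none of the 5 in 10.2% and 56.1%.

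**Figure D5:**
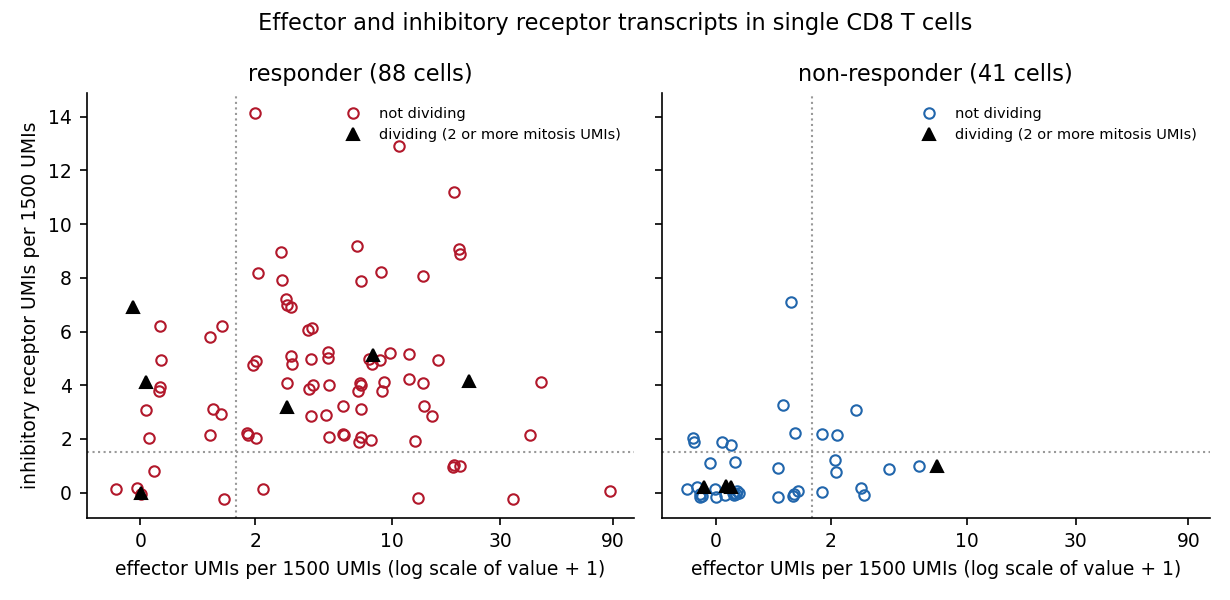
Each point is a CD8 T cell after drawing 1500 UMIs, with the UMIs of 5 effector genes (horizontal, log scale of value + 1) and of 5 inhibitory receptors (vertical), in the responder library (left, 88 cells) and the non-responder library (right, 41 cells). Dotted lines separate cells with 1 UMI from cells with 2, triangles are dividing cells, small random offsets separate equal points, and 62 responder and 3 non-responder cells lie above both limits.

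Dividing cells were few in both libraries, 6 of 88 (6.82%, 2.54 to 14.3%) in the responder and 4 of 41 (9.76%, 2.72 to 23.1%) in the non-responder library, with overlapping intervals. Macrophages met the same rule in 15.7% and 20.4%, above both values, and the part of macrophage RNA was not tested. Of the 6 responder dividing cells 5 were inhibitory-receptor cells and 3 effector, and of the 4 non-responder dividing cells 0 and 1. Dividing cells were deeper, with median UMIs of 5826 against 3766 in the other responder cells and 14272 against 5866 in the other non-responder cells. Their median C1q share was 0.0723% against 0.0980% in the other responder cells, and 0.230% against 0.0389% in the other non-responder cells. However, 1 responder dividing cell had the highest C1q share of its library, 0.938%. That cell held 20566 of the 49637 UMIs of the responder dividing cells.

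Dividing cells had more transcripts of tubulin and chromatin genes. The genes that chose the cells were left out. Tubb5, a tubulin, had 2397 CPM in dividing and 306 CPM in other responder cells, and 3112 and 403 CPM in the non-responder library, log2 ratios of 2.97 and 2.95. Stmn1, which regulates microtubules, had a log2 ratio of 3.76 among responder cells and 3.02 among non-responder cells, and Tuba1b 3.21 and 2.24. The chromatin proteins H2afz (2.12 and 2.19) and Hmgb2 (2.01 and 2.55) and 2810417H13Rik (6.15 and 2.82) followed. Among responder dividing cells, 1 cell held 42.9% of the Tubb5, 44.2% of the Tuba1b and 45.2% of the H2afz UMIs. In the non-responder library these top-cell shares were 34.5%, 40.5% and 43.4%. H2-Eb1 and H2-Aa also ranked, but 1 cell held at least 91.7% of their UMIs among the dividing cells of each library. The macrophage list had median log2 ratios of 1.63 among responder cells and -0.34 among non-responder cells for this contrast.

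Dividing cells had less Ccl5, at 4231 CPM against 11098 CPM in the other responder cells and 130 against 2054 CPM in the other non-responder cells. Ly6c2, a surface protein of memory and effector cells, had log2 ratios of -2.58 and -2.65, and Ifi27l2a, an interferon-induced gene, -1.20 and -1.29. Xcl1 also ranked, at 0 against 598 CPM in the responder library and 204 against 682 CPM in the non-responder library. However, 1 cell held 84.2% of the UMIs of the other responder cells, 1 cell held all 11 UMIs of the non-responder dividing cells, and the responder log2 ratio was 0.66 in cells drawn to 1500 UMIs. Across the 1163 genes compared, 31 were higher and 30 lower with intervals clear of 0 in both libraries.

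Inhibitory-receptor cells were set against the other cells of their own library, 75 against 13 in the responder and 10 against 31 in the non-responder library. The class came from the drawn UMIs, while the contrast summed all UMIs of each cell, so the other cells were not free of receptor transcripts. Of the 13 other responder cells, which held 86346 UMIs, 1 had 23658 UMIs and 27 receptor UMIs before drawing. Another had 20566 UMIs and 12 receptor UMIs. The highest such count among the other non-responder cells was 14. Rgs16 had 1069 CPM in inhibitory-receptor cells and 301 CPM in other responder cells, and 390 and 143 CPM in the non-responder library, log2 ratios of 1.83 and 1.45. In the non-responder library 1 cell held 59.1% of the 22 Rgs16 UMIs of the inhibitory-receptor cells. Cxcr6 had log2 ratios of 1.77 and 0.89, Nkg7 1.13 and 0.54, and Serpina3g, a protease inhibitor of activated T cells, 1.78 and 0.94. Ms4a4b (1.28 and 0.96), Phf11b (1.66 and 1.40), S100a6 (0.70 and 0.83) and Shisa5 (0.86 and 0.74) were also higher in both, with 57.9% of the 19 Phf11b UMIs of the non-responder inhibitory-receptor cells in 1 cell.

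Lower in inhibitory-receptor cells were Actb, the beta-actin gene (-0.76 and -0.81), and Psap, Tgfbi and H2-Eb1, which macrophages express. Among the other cells, 1 cell held 82.5% of the Psap, 88.1% of the Tgfbi and 90.2% of the H2-Eb1 UMIs in the responder library, and 58.8%, 50.9% and 66.1% in the non-responder library. Of 16 macrophage genes 11 were lower in both libraries, with medians of -0.80 and -1.67, and of all 1161 genes compared 324 were lower and 366 higher in both. In the responder library Psap, Tgfbi and H2-Eb1 changed sign without the dividing cells, to 0.65, 0.51 and 1.29. Of the 1161 genes, 34 were higher and 37 lower in both libraries with intervals clear of 0.

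The nearest other cells were T cells with no CD8 UMI, 7 in the responder library and 29 in the non-responder library. Since CD8 transcripts chose the cells, the values are a description. The 7 responder cells held 36791 UMIs in sum, with up to 11492 in 1 cell. Of 238 listed genes, 15 were at least 2-fold higher and 28 at least 2-fold lower in CD8 T cells in both libraries. The same counts over all genes are not given here. Among the 15 were Klrd1, Nkg7, Cxcr6, Pdcd1, Lag3, Gzmk and Ifng. Klrd1 had 1862 CPM in CD8 T cells and 136 CPM in CD8-negative T cells of the responder library, and 602 and 62.3 CPM in the non-responder library. Among the 28 were the regulatory T cell genes Foxp3 and Tnfrsf4, with Foxp3 at 4.77 against 299 CPM and 0 against 198 CPM, and Tnfrsf4, the OX40 receptor, at 279 against 3180 CPM and 214 against 1325 CPM. The interferon-induced Isg15 was also among them, at 305 against 951 CPM and 86.9 against 532 CPM. Gzmb was in neither group, at 3622 against 2011 CPM in the responder and 456 against 815 CPM in the non-responder library. Ctla4 was at 513 against 707 CPM and 46.6 against 227 CPM.

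Droplets that met the T cell rule but held 1% C1q or more numbered 96 in the responder library and 20 in the non-responder library. They carried Gzmb at 814 CPM in the responder library and 230 CPM in the non-responder library, and Pdcd1 at 209 and 137 CPM, the same order as in the CD8 T cells. Whether these droplets were pairs of cells or T cells with free macrophage RNA was not tested.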

How the data were processed

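The authors deposited, for each of the 2 libraries, a filtered matrix of UMI counts per gene and barcode. Cell Ranger 1.1.0 and the builds mm10 and GRCm38 are named in the submitters' processing notes, and libraries were made with the 10x Chromium 3' v3 kit, per the labels' protocols. Neither the gene annotation used nor the method of cell calling is given in the sources used here. Library totals were 45866561 UMIs (responder) and 32032569 (non-responder). Of 27998 gene identifiers, 27645 were placed with GENCODE M21.

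Counts were summed over the cells of a library and divided by their total (CPM), with exact Poisson intervals. Log2 ratios have exact conditional binomial intervals and shares exact Clopper-Pearson intervals, all at 95% and for counting error only. Genes with at least 30 UMIs were compared, a sum of 0 entered at 3 UMIs, and a gene was counted as different past 2-fold. With 1 library per group no test was made. Cells were drawn to 1500 UMIs with a fixed seed per cell, and no cell fell below that depth. No doublet caller was run, and the largest 10% of cells and the C1q limit were varied instead.

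The ranked genes are the 12 higher and 12 lower whose log2 bound nearest 0 lay farthest from 0, among genes at least as high in CD8 T cells as in macrophages of the library where they were higher. In the contrasts within libraries, 8 higher and 4 lower were ranked by the smaller bound of both libraries. Listed genes are named from pathway and marker lists, and a few are not reported here. Members and lists were chosen with earlier results of these data known. Alternatives added after seeing the data were leaving out the top cell of each gene, shared barcodes, the average over all draws, and the C1q limit within the contrasts. Calculations were tested on simulated data and used Python 3.11.15, numpy 2.4.6, scipy 1.17.1, pandas 2.3.3, matplotlib 3.10.9 and edgeR 4.0.16 (for its TMM scaling).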

Additional observations from a re-analysis of the deposited data

How the results depend on the processing

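Of the 24 ranked genes, 402 of 407 values under alternatives kept their sign. These genes were ranked for large differences in nearly the same cells, so a kept sign is no check on them. Of the 407 values, 59 kept their sign but left the main interval. Of the main shares, counts and list medians, 218 values under alternatives stayed within set limits and 44 did not. No replicate could be left out, since each group is 1 library. No paired analysis was possible because the groups hold 1 library each and no test was made. Depth limits the shares, since the median responder cell held 3852 UMIs and the median non-responder cell 6187. For the values that moved, the cause was not tested unless fewer cells, UMIs or genes entered by construction.

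With C1q allowed up to 2% of UMIs, the responder and non-responder shares of filtered barcodes were 2.99% and 2.22%, the responder effector and receptor shares 62.6% and 66.4%, and the list medians 0.58 (effector), 1.31 (cytokines and chemokines), -0.26 (mitosis), 0.059 (naive and memory) and 0.14 (stress). Foxp1 and Top2a then had log2 ratios of 0.024 and 0.23. With C1q under 0.5% the medians of mitosis and macrophage genes were -2.08 and 0.063, and Prdx1 was at 0.11. With C1q under 0.2%, 60 genes were at least 2-fold lower, Prdx1 was at 0.28, Gbp2 at -0.13, and the medians of DNA replication and macrophage genes at 0.15 and 0.57.

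With cells drawn to 1500 UMIs before summing, 134 genes were at least 2-fold higher and 28 lower, and the medians were 2.58 (inhibitory receptors), 0.89 (naive and memory), 0.94 (stress) and 0.41 (macrophage). Mt2, Tnfrsf18 and Top2a were then at 0.068, -0.10 and 1.48. Genes with at least 10 UMIs gave 723 higher and 419 lower and medians of 0.53 (effector) and 1.43 (cytokines and chemokines), and genes with at least 1 UMI gave 1087, 810, 0.53 and 1.36. Without the largest 10% of cells Prdx1 was at 0.13 and the medians at 0.040 (naive and memory), -0.034 (respiratory chain) and 0.65 (macrophage). At least 2 CD8 UMIs gave 0.16 (naive and memory) and 0.015 (DNA replication), and leaving out dividing cells gave 0.18 (naive and memory). The respiratory chain was at -0.050 with TMM and -0.045 with the total taken over genes not higher in macrophages. Without the top cell of each gene, Prdx1 was at 0.051 and the stress median at 0.015.

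At 1000 UMIs per cell the receptor shares were 64.8% (responder) and 12.2% (non-responder), and the non-responder effector share 9.76%. At 3000 UMIs the receptor shares were 93.4% and 43.9%, the responder dividing share 15.8% and the non-responder effector share 43.9%. Without drawing, the receptor shares were 95.5% and 65.9%, the dividing shares 20.5% and 24.4%, and the non-responder effector share 61.0%. With 1 UMI as the limit, the responder dividing share was 22.7%, and the non-responder effector and receptor shares 46.3% and 43.9%. With 3 UMIs the receptor shares were 70.5% and 7.32%.

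In the dividing contrast, drawn cells gave 7 genes higher and 4 lower in both libraries, and C1q under 0.2% gave 18 lower. H2-Aa was then at -0.23 (responder) and -0.82 (non-responder), and Xcl1 was at 0.66 (responder) in drawn cells. In the receptor contrast, drawn cells gave 8 higher and 5 lower, with Tgfbi at 0.90 (non-responder). A limit of 3 UMIs gave 20 lower. Without dividing cells 22 were lower, with Psap, Tgfbi and H2-Eb1 at 0.65, 0.51 and 1.29 (responder). With C1q under 0.2%, Tgfbi and H2-Eb1 were at 0.90 and 0.89 (responder) and Psap at 0.47 (non-responder).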

Other observations

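Small groups of CD8 T cells held several of the transcripts that differed between libraries. They were chosen after their values were seen and are given as values only. In the non-responder library, the 5 cells without a Cd8b1 UMI were the same 5 cells that held Klra1, Klra7 or Klra9, genes of the Ly49 receptor family, with 30, 27 and 10 UMIs. These transcripts were at 0 in the 88 responder cells and the other 36 non-responder cells. The 5 cells also held 28 of the 40 Cd7 UMIs, 39 Xcl1 UMIs in 4 cells, and 9 of the 13 Id3 UMIs, but 1 Pdcd1 UMI. Of the NK cell genes besides Klra9, Klrb1c had 3 UMIs in 1 cell, and Ncr1 and Gzma had 0. Fcer1g, a gene of the macrophage list, had 41 UMIs in 3 of the 5 cells, whose highest C1q share was 0.0341%. All 5 had Cd3e, 29 UMIs in sum. The Ly49 genes are near copies, so the counts may not separate them fully.

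Dapl1 was seen in 6 non-responder and 0 responder cells. These 6 cells held 86 Xcl1 UMIs in 5 cells and 1 Gzmb UMI.

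Cells with 2 or more Gzmf UMIs numbered 8 in the responder library and 5 in the non-responder library. They held 52 of 54 and 446 of 447 Gzmf UMIs. The responder cells held 0 UMIs of Spp1, the osteopontin gene, and the non-responder cells 153 of the 224 in that library. The cell with the most Spp1 (90 UMIs) held 46 Gzmf UMIs and 0 UMIs of the macrophage genes Lyz2 and Apoe, with a C1q share of 0.0713%. The 8 responder cells with Gzma all held Gzmb, 345 UMIs in sum. A single responder cell of 23658 UMIs held 186 Xcl1, 92 Ccl1, 131 Ccl4, 170 Gzmb and 56 Gzma UMIs, with 32 of Cd8a and a C1q share of 0.0465%.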
